A study of Drosophila melanogaster with 4 samples.

Results

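Sex-lethal (Sxl) and B52 encode RNA-binding proteins that act on pre-mRNA splicing, and both fell in ovaries of snf148 mutant flies in the authors' test. They were found by gene name in the authors' deposited tables of differentially expressed genes and make up 2 of the 1283 genes listed there. Ovaries of Drosophila melanogaster were sequenced in 2 libraries per genotype. The mutant females had the genotype y w snf[148] v and were 3-day adults, whereas the wild-type females were y w virgins collected 0 to 24 hours after becoming adults. Both groups thus carried the X-linked markers y and w, and the allele v was carried by the mutant only. Genotype, v and age cannot be told apart in this comparison, and mating status was labelled for the wild type alone.

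Sxl is the switch gene of female development in the fly. Its protein binds uridine-rich stretches of RNA, including those of its own transcript, where it makes the splicing machinery skip an exon that would stop translation early; males include that exon and make no full-length protein. The snf protein, a part of the spliceosomal U1 and U2 particles, is needed with Sxl for this skipping. Germ cells of snf148 females lack Sxl protein and grow into tumours. B52 belongs to the SR proteins, which carry RNA recognition motifs and a tail rich in arginine and serine, bind exons and recruit the splicing machinery. It is the fly counterpart of mammalian SRp55 and is abundant at actively transcribed genes.

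Levels are the authors' means over the libraries of a genotype in FPKM, a fragment count scaled by transcript length and by sequencing depth. Values of single libraries were not analysed here, so no SD stands beside a mean and the depth is unknown. Sxl stood at 66.6 FPKM in snf148 ovaries and at 109.6 FPKM in wild-type ovaries. The mutant level was 60.8% of the wild-type level, or -0.72 on the log2 scale (snf148 over wild type). The authors' deposited table gives this difference a P value of 0.001 and an adjusted P value of 0.0140.

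B52 stood at 147.8 FPKM in snf148 ovaries and at 314 FPKM in wild-type ovaries, which put the mutant at 47.1% of the wild-type level (log2 ratio -1.09). The authors' deposited table gives it a P value of 5e-05, the smallest in the tables, and an adjusted P value of 0.00126. B52 is among 5 of 1242 genes above 0 in both genotypes whose deposited log2 fold change differs by more than 0.001 from the ratio of their deposited means. The authors' value, stated as wild type over snf148, is 1.13, against 1.09 for the ratio of the means in the same direction, and on a linear scale 2.19-fold against 2.12-fold. For Sxl the deposited log2 fold change and the ratio of the means are the same at 0.72.

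B52 was the more abundant of the pair in both genotypes. Its FPKM, a length-scaled level, was 2.22 times that of Sxl in snf148 ovaries and 2.86 times in wild-type ovaries. Whether B52 fell further than Sxl was not tested, because the tables hold no value per library.

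Every gene in the tables is past the authors' threshold, with adjusted P values between 0.00126 and 0.0497, so being called is a property of the tables and not of these members. Both members were lower in snf148, as were 48.2% of all listed genes. Among the 618 genes listed as lower, Sxl ranked 144 by its level in snf148 and 175 by its level in wild type, and B52 ranked 52 in snf148 and 47 in wild type, with 1 as the highest level. The median level of those 618 genes was 30.3 FPKM in snf148 and 63.5 FPKM in wild type, so both members stood above the median gene in both genotypes.

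The fall of B52 was of median size and that of Sxl was among the smaller ones listed. The median log2 ratio of the 616 lower genes above 0 in both genotypes was -1.06, with quartiles of -1.61 and -0.83, and the smallest listed fall was -0.59. A larger fall than that of B52 was listed for 299 lower genes and a smaller one for 318. For Sxl the counts were 543 and 74. At least 2-fold falls make up 54.2% of the lower genes, and B52 reached 2-fold whereas Sxl did not. An adjusted P value of at most 0.01 was reached by 56.3% of the lower genes, again with B52 and without Sxl. B52 shares its adjusted P value, the smallest in the tables, with 203 other lower genes, and 382 lower genes have a smaller adjusted P value than Sxl.

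**Figure D1:**
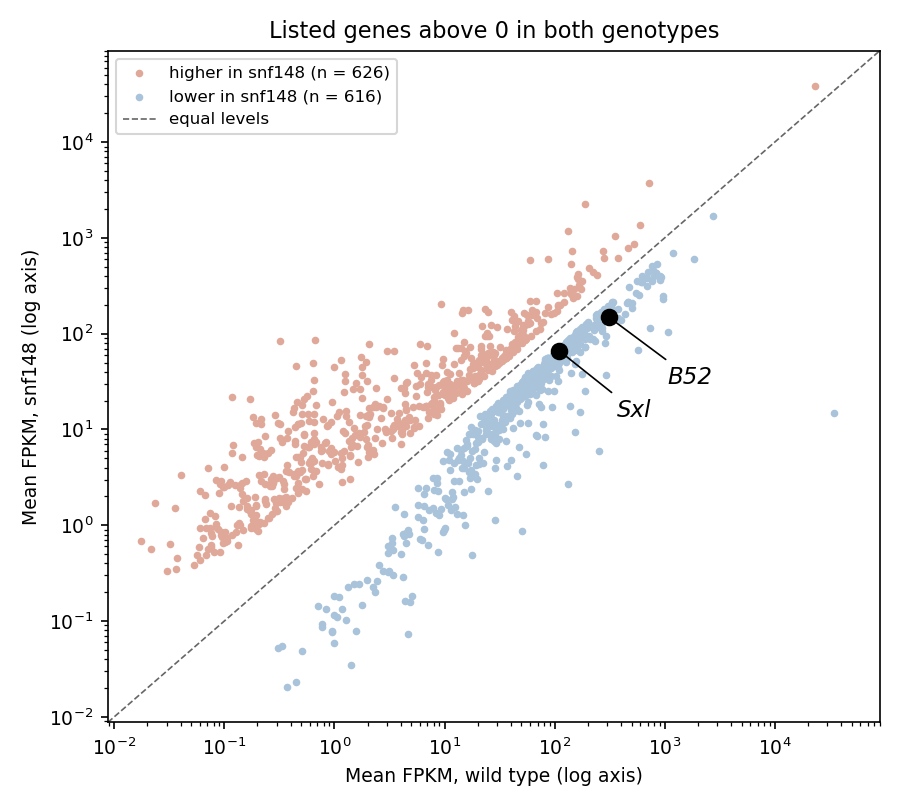
Mean FPKM in snf148 (vertical, log axis) against mean FPKM in wild type (horizontal, log axis) for each listed gene above 0 in both genotypes, coloured by direction, with the line of equal levels dashed. Sxl and B52, in black, lie in the upper part of the band of lower genes, with Sxl at 66.6 and B52 at 147.8 FPKM in snf148.

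Among the lower genes of their own chromosome or arm, both members ranked in the upper part by wild-type level. Sxl lies on the X, at 6968583 to 6992089 in the build of the tables, which the sources used here do not name. Of the 79 X-linked genes listed as lower, it ranked 18 by wild-type level, and 64 of them fell further. B52 lies on chromosome arm 3R, at 9487022 to 9492613. Of the 162 lower genes on that arm it ranked 16 by wild-type level, and 92 of them fell further.

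Each FPKM pools all transcripts of its gene, so the splice forms that distinguish the sexes at Sxl are not separated. In the Ensembl annotation of release 6, which is another build than that of the tables and is used here for transcript structure only, Sxl has 25 transcripts with spliced lengths of 1515 to 5964 nucleotides. Of these, 7 have an open reading frame of only 42 to 48 codons, and in all 7 the frame ends inside an exon of 172 to 190 nucleotides. This is the structure known for the male mode of splicing. The same exon is part of 2 further transcripts, whose frame of 314 codons starts downstream of it. The other long frames reach up to 722 codons. A gene-level fall to 60.8% does not say which of these transcripts fell.

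B52 has 10 annotated transcripts of 1557 to 3966 nucleotides. Of these, 6 have a frame of 329 to 355 codons and spliced lengths up to 1725 nucleotides. The other 4 have a frame of 135 to 147 codons that ends within an exon of 1480 to 2557 nucleotides, and are 3045 nucleotides or longer. FPKM divides by transcript length, and a change in the mix of short and long transcripts can enter a gene-level value as well. Such a change was not tested for either gene. No protein-coding gene overlaps Sxl or B52 in this annotation. Within the span of Sxl lie the noncoding gene CR46494, on the opposite strand, and the microRNA gene mir-4956, neither of which is in the tables. The library kit keeps strand, per the labels' protocols, but whether the authors' counting used it is not given in the sources used here.

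**Figure D2:**
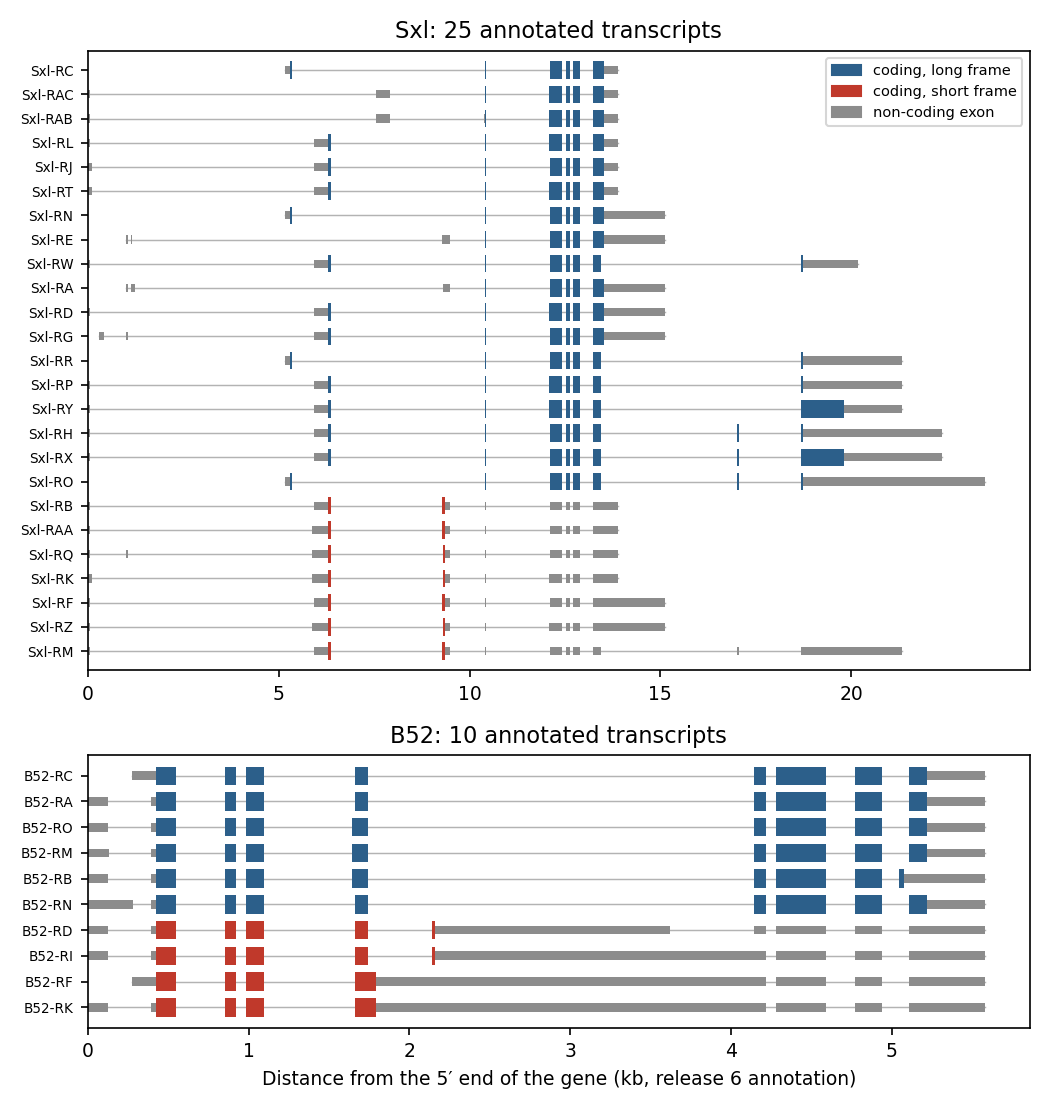
Annotated transcripts of Sxl (25) and B52 (10), drawn 5′ to 3′ along the gene with distance in kb; thick boxes are coding, in blue for a long reading frame and red for a short one, and thin grey boxes are non-coding. The 7 Sxl transcripts with red boxes stop within the same exon, and the 4 B52 transcripts with red boxes run into a long exon.

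The RNA of bulk ovaries mixes germ cells with somatic follicle cells, and fewer cells of a type and less RNA per cell cannot be told apart. Sxl is expressed in both. The 5 germline markers in the tables, of 8 considered (osk, BicC, orb, aret and grk), were all lower in snf148, with log2 ratios from -1.13 for grk to -1.97 for osk. Their summed level was 642 FPKM in snf148 and 1934 FPKM in wild type. These 5 do not stand for germline genes as a whole. The gene bgcn, which acts in germ cell differentiation, was higher, at 21.1 FPKM in snf148 and 1.78 FPKM in wild type. Of the meiosis genes ord and mtrm, ord was higher, at 26.5 FPKM in snf148 and 1.72 FPKM in wild type. The other, mtrm, was lower, at 76.1 FPKM in snf148 and 160.7 FPKM in wild type. The 2 follicle cell markers in the tables, of 6 considered, were higher, with Fas3 at 164.7 FPKM in snf148 and 53.2 FPKM in wild type and Vm26Aa at 218.9 FPKM in snf148 and 67.9 FPKM in wild type. These 2 do not stand for follicle cell genes as a whole. The eggshell genes Cp15, Cp16, Cp18, Cp19 and yellow-g2, which follicle cells express late in oogenesis, were lower. Of these, Cp18 stood at 5.98 FPKM in snf148 and 250.8 FPKM in wild type. Another eggshell gene, dec-1, was higher, at 138 FPKM in snf148 and 40.9 FPKM in wild type. Of 6 genes considered as testis markers, the 4 in the tables (Rbp4, can, bgcn and aly) were higher. Among these, bgcn is the germ cell gene named above and is not particular to the testis. The level of can was below 1 FPKM in both genotypes, at 0.635 FPKM in snf148 and 0.0324 FPKM in wild type. Rbp4 had the largest log2 ratio of the 4, at 5.91. Of 4 muscle markers considered, the 2 in the tables, Act79B and Act88F, were lower and summed to 3.93 FPKM in snf148 and to 29.05 FPKM in wild type. Other muscle genes in the tables were more abundant and went both ways, with Mp20 at 409 FPKM in snf148 and 240.7 FPKM in wild type and the actin gene Act87E at 66.1 FPKM in snf148 and 124.5 FPKM in wild type. Of 4 fat body markers considered, 2 were in the tables and went both ways. Lsp1gamma was lower, at 39.0 FPKM in snf148 and 140.8 FPKM in wild type. Rfabg was higher, at 59.8 FPKM in snf148 and 25.3 FPKM in wild type. Sxl fell by less than each of these 5 germline markers. Other germline genes fell by amounts on both sides of Sxl, with log2 ratios of -0.65 for tral, -0.73 for egl and -1.38 for pgc. B52, at -1.09 from the means or -1.13 with the authors' log2 value, stood beside grk at -1.13. The part of any of these cell types in the fall of Sxl or B52 was not tested.

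Genes around Sxl and B52 in function were then examined, from 10 lists of 134 genes in all. The tables hold 12 of them, B52 included, of which 9 were lower and 3 higher in snf148. Of all listed genes 48.2% were lower. Without B52, 8 were lower, with a median log2 ratio of -0.72, against -1.06 for all lower genes above 0 in both genotypes. Of genes outside the tables nothing is known here, neither their level nor whether they were tested. The mutated gene snf is one of these, which left no RNA check of the mutation. Only called genes are listed, so no share of all tested genes can stand beside the counts of list genes present. Those counts therefore do not set any list, or B52 among the SR proteins, apart from other genes.

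On the Sxl side, none of the 16 listed splicing cofactors of Sxl and none of its 4 relatives in the ELAV family were in the tables. Of 13 regulators of Sxl promoters and germline Sxl activity, only sisA, an X-linked activator of the early Sxl promoter in the embryo, was present. It stood at 0.429 FPKM in snf148 and is listed at 0 in wild type (adjusted P 0.00126 in the authors' deposited table), a level far below that of Sxl itself. Of 18 genes of sex determination, dosage compensation and Sxl targets, only bgcn was present, a partner of bam in germ cell differentiation, with 21.1 FPKM in snf148 and 1.78 FPKM in wild type. The Sxl target tra and the germline gene Phf7 are not in the tables.

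On the splicing side, B52 was the only one of 11 SR proteins in the tables. Of 6 genes that modify or bind SR proteins, 1 was present, Top1, which encodes topoisomerase I. Top1 stood at 66.5 FPKM in snf148 and 106.1 FPKM in wild type (adjusted P 0.0273 in the authors' deposited table). Of 22 genes of the U1 and U2 particles and the Sm core, 1 was present, CG13900, now named Sf3b3, which encodes a subunit of the U2 particle. It stood at 162.7 FPKM in snf148 and 329.9 FPKM in wild type, close to B52 in both.

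Of 20 other spliceosome genes, 2 were present and both were lower. The gene hoip, whose protein binds U4 RNA and box C/D RNAs, stood at 356 FPKM in snf148 and 769 FPKM in wild type, and U4-U6-60K at 25.2 FPKM in snf148 and 41.6 FPKM in wild type. Of 13 hnRNP and related genes, 3 were lower and 1 higher. The lower ones were sqd, which encodes an hnRNP that acts on gurken RNA in the oocyte, at 212 FPKM in snf148 and 336 FPKM in wild type, the helicase gene Rm62 at 210.6 FPKM in snf148 and 333 FPKM in wild type, and Hrb98DE at 81.6 FPKM in snf148 and 136.5 FPKM in wild type. The higher one was sm, an hnRNP L relative, at 31.3 FPKM in snf148 and 9.75 FPKM in wild type. From the exon junction and export list of 17, Hel25E, the helicase that couples splicing to export, was the only one present, at 199.9 FPKM in snf148 and 328.9 FPKM in wild type. B52, hoip and CG13900 stood at or below 49.3% of the wild-type level, whereas the other 6 lower genes of these lists, like Sxl, stood between 59.8% and 63.2%.

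**Figure D3:**
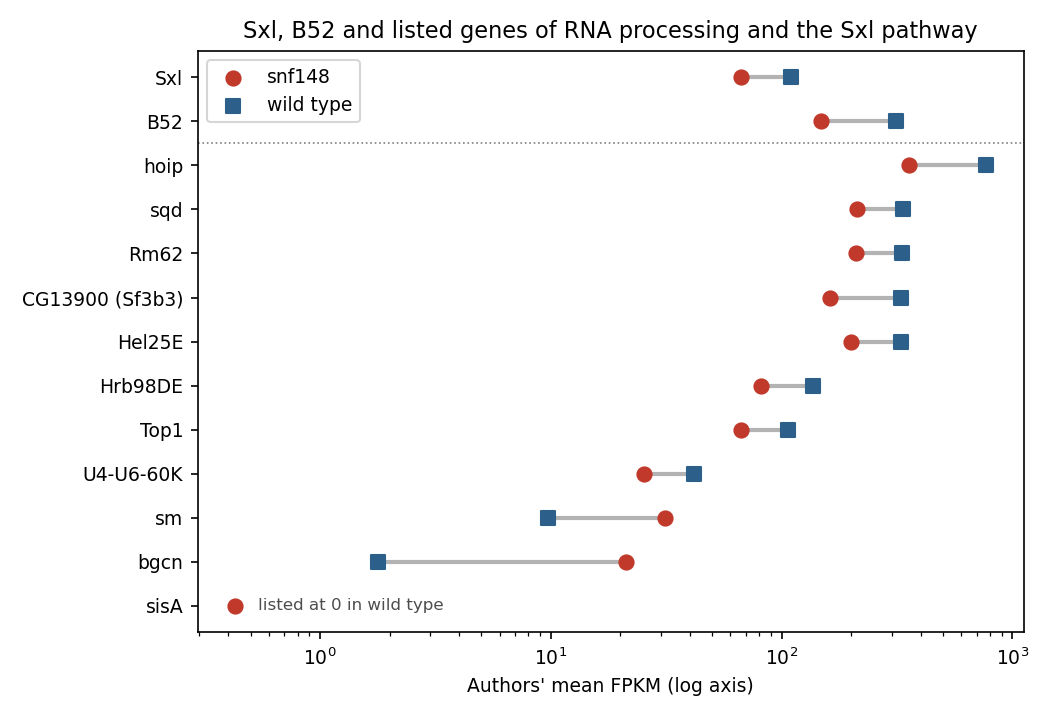
Mean FPKM (log axis) in snf148 (red circles) and wild type (blue squares) for Sxl and B52, above the dotted line, and for the other listed genes of RNA processing and the Sxl pathway. The circle lies left of the square for Sxl, B52 and the 8 genes from hoip to U4-U6-60K, and right of it for sm and bgcn; sisA has a circle only.

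The genes closest in level to each member were sought over the 2 genotype means, as the straight-line distance between log2 levels, among 1241 other genes above 0 in both genotypes. With 2 means this measures level and ratio only. The closest to Sxl was Top1, at a distance of 0.047, followed by kuk, a protein of the nuclear envelope, at 67.3 FPKM in snf148 and 105.9 FPKM in wild type, and prtp at 65.9 FPKM in snf148 and 105.6 FPKM in wild type. The closest to B52 was La, an RNA-binding protein of the La family, at 148.8 FPKM in snf148 and 331 FPKM in wild type and a distance of 0.077. P32, at 156.9 FPKM in snf148 and 301 FPKM in wild type, and CG13900 came next. Adjusted P values in the authors' deposited table ran from 0.0192 to 0.0273 for the 3 genes closest to Sxl, and from 0.00126 to 0.00223 for the 3 closest to B52.

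The nearest listed gene on either side of Sxl and of B52 was higher in snf148, as were 665 of all 1283 listed genes. Listed genes further away went both ways. On the side of lower coordinates, the first listed gene beside Sxl was Inx2, an innexin of gap junctions, 63.4 kb away with 9 protein-coding genes between them in the release 6 order. It was higher, at 191.8 FPKM in snf148 and 86.7 FPKM in wild type. On the other side it was CG42704, 314.6 kb away, also higher at 50.02 FPKM in snf148 and 0.640 FPKM in wild type. Within 150 kb of the centre of Sxl, the 2 other listed genes, Inx2 and ogre, were both higher, so Sxl was the only listed gene there that fell.

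B52 lies in a denser stretch. The first listed gene on the side of lower coordinates was Rbp4, an RNA-binding protein of spermatocytes, separated from B52 by 4.9 kb. It stood at 12.9 FPKM in snf148 and 0.214 FPKM in wild type, a log2 ratio of 5.91. Beyond it lie rin, which encodes the fly G3BP, at 117.1 FPKM in snf148 and 176.2 FPKM in wild type, and sqd, 15 kb from B52. On the other side, f-cup was 27.2 kb away and higher, at 17.9 FPKM in snf148 and 9.10 FPKM in wild type. Hrb87F, the hnRNP gene between Rbp4 and B52 in the release 6 order, is not in the tables. Of the 9 other listed genes within 150 kb of the centre of B52, 4 were lower and 5 higher.

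**Figure D4:**
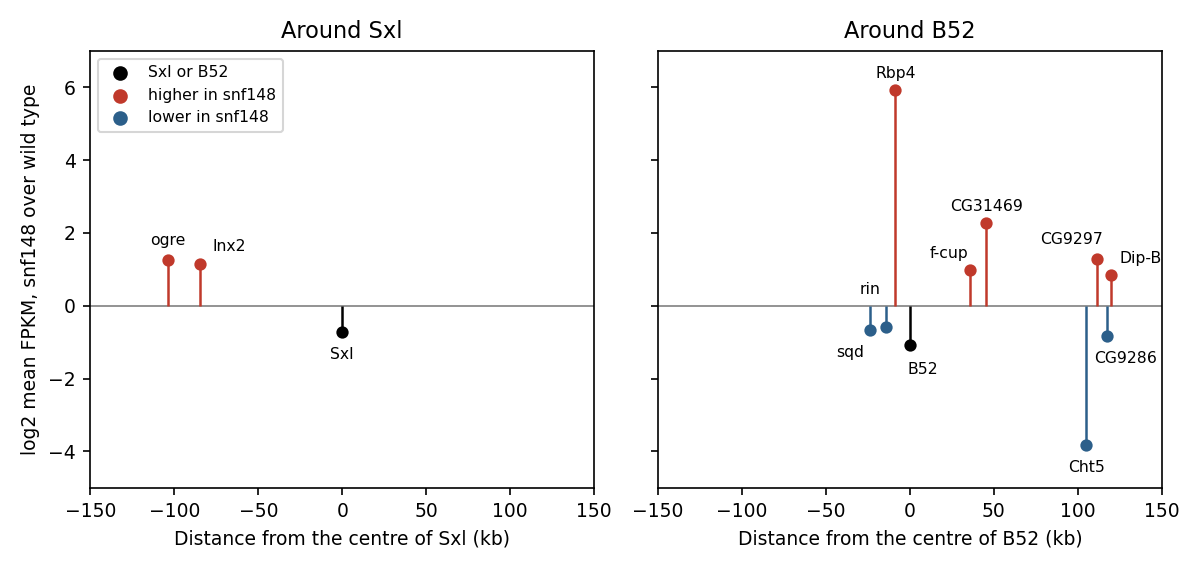
Log2 ratio of mean FPKM, snf148 over wild type, of the listed genes within 150 kb of the centre of Sxl (left) or B52 (right), by distance in kb. Sxl at -0.72 stands alone below 0, while B52 at -1.09 has 4 lower and 5 higher listed neighbours, with Rbp4 at 5.91.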

How the data were processed

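Ovarian RNA was made into stranded total RNA libraries, per the labels' protocols, and reads were processed with TopHat2 2.0.9 and Cuffdiff (no version), per the submitters' processing notes. The deposited tables hold the authors' mean FPKM for each genotype, their log2 fold change (wild type over mutant) and their raw and adjusted p-values, per the file headers. Build and annotation: not given in the sources used here. The planned fit to single libraries could not be run, because the columns are genotype means; p-values are therefore the authors', and whether the libraries came from separate flies is not stated.

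The 2 FPKM columns set the direction: the table titled upregulated holds 618 genes, all lower in snf148. Log2 ratios (snf148 over wild type), ranks and distances were computed with Python 3.11.15 and pandas 2.3.3, with no pseudocount. Ratios and distances took only genes above 0 in both genotypes, with no other filter. The functions for the log2 ratio and the rank were tested on simulated data, and the distance was not. The deposited starts were taken to count from 0, because spans then equal the reference gene length for 537 genes, against 9 with starts counted from 1; printed starts were raised by 1. Of the 1283 names, 1265 matched a RefSeq symbol of release 6. List genes were matched by name or by a synonym of a single gene; 4 list names had no current symbol and were sought by name. Transcripts are from Ensembl release 115. Members and lists were chosen with earlier results of these data known.

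Named were Sxl, B52, the 3 genes closest in level to each, the nearest listed gene on either side, and listed members of the 10 lists. The genes rin, ogre, Hrb87F, tra and Phf7 were named outside that rule. So were Cp15, Cp16, Cp18, Cp19, yellow-g2, Mp20, Act87E, dec-1, tral, egl and pgc, after their values were seen. The meiosis genes ord and mtrm were also named outside it. Other tissue markers come from the marker list. The alternatives were pseudocounts of 1 and 0.1 FPKM, a threshold of 0.01 on the adjusted P value, the authors' log2 value, at least 1 FPKM and at least 2-fold.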

Additional observations from a re-analysis of the deposited data

How the results depend on the processing

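The log2 ratios (snf148 over wild type) kept their sign, but the alternatives run could not test the direction. A pseudocount added to both means keeps their order, and a threshold leaves the ratio as it is. The authors' log2 value comes from the same libraries. With pseudocounts of 1 and 0.1 FPKM the log2 ratio of Sxl was -0.71 and -0.72, and that of B52 was -1.08 and -1.09. The authors' log2 value with its sign turned gives B52 -1.13. With 0.01 as the threshold on the adjusted P value, Sxl, with a log2 ratio of -0.72 and an adjusted P value of 0.0140 in the authors' deposited table, was no longer called, whereas B52 was. The 9 lower genes of the lists became 4 at that threshold and 3 with at least 2-fold required, since fewer genes pass. Of all 618 lower genes, 56.3% passed that threshold and 54.2% the 2-fold limit. With at least 1 FPKM required the lower list genes stayed 9. The 3 higher ones stayed 3 at the threshold and with 2-fold required, and became 2 with at least 1 FPKM required. No paired analysis was possible because the tables hold genotype means, and leaving out a replicate was not run for the same reason. Depth is unknown.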
